A study of Mus musculus with 4 samples.

Results

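The 6 genes described here are the mouse Fc gamma receptors Fcgr1, Fcgr2b, Fcgr3 and Fcgr4 and the signalling adaptors Fcer1g and Tyrobp, followed across the cells of 4 aorta libraries. They were taken by symbol, and all 6 were matched among the 32285 features of the count matrices. The members were chosen by name with measured levels of these same libraries in view, so their levels are given as a description, with no test.

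Fc gamma receptors bind the constant part of IgG and let macrophages, neutrophils and other leukocytes take up or respond to antibody-coated material and immune complexes. Fcgr1, Fcgr3 and Fcgr4 encode activating receptors that reach the cell surface and signal with the common gamma chain Fcer1g, whose immunoreceptor tyrosine-based activation motif is phosphorylated by Src family kinases and recruits the kinase Syk. Fcgr2b encodes the inhibitory receptor, which carries its own inhibitory motif, works through the lipid phosphatase Inpp5d (SHIP1) and is the main Fc gamma receptor of B cells. Tyrobp (DAP12) is a related adaptor that serves Trem2, Clec5a and other receptors rather than the Fc gamma receptors. In atherosclerotic aorta, macrophages that take up lipoprotein become lipid-laden foam cells, and antibodies against modified lipoproteins are a known source of immune complexes there.

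Single-cell RNA of mouse aorta was measured with a droplet kit that reads the 3' ends of transcripts, in 4 libraries, 1 for each group. On normal diet these were WT and LysM-DKO, on western diet WT/ApoE-/- and LysM-DKO/ApoE-/-, and values below follow that order. The labels do not spell out the alleles of LysM-DKO; the series title names epsins, and LysM is the lysozyme gene Lyz2, whose locus is widely used to drive Cre in macrophages and neutrophils. Both western diet groups lack ApoE while the normal diet groups are not labelled so. The labels give no age, no sex and no number of animals per library. With 1 library per group nothing between groups could be tested: intervals below are exact 95% intervals that cover counting error only, and UMIs (unique molecular identifiers, each standing for 1 captured transcript) are summed per library and class and given as CPM, counts per 1000000 UMIs of that sum. Because the kit counts transcript ends, these levels do not scale with transcript length.

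To show the regulatory sequence of the genes that the results compare, the 250 bases before the RefSeq start (table of build GRCm38.p6) are printed 5' to 3' on the strand of each gene. Capitals mark matches to GAGGAA, a core bound by the myeloid factor PU.1, or its reverse complement TTCCTC.
Fcgr1, chr3:96293970-96294219, minus strand: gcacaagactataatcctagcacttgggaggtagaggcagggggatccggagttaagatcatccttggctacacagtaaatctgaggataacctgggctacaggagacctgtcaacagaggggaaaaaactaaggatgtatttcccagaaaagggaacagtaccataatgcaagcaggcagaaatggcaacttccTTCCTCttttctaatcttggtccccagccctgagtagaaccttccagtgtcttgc
Fcgr3, chr1:171059395-171059644, minus strand: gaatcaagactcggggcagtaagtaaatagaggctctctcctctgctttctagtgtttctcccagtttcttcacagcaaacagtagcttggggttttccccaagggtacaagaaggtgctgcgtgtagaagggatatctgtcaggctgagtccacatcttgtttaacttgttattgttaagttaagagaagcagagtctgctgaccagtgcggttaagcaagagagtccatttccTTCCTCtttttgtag
Fcgr4, chr1:171018676-171018925, plus strand: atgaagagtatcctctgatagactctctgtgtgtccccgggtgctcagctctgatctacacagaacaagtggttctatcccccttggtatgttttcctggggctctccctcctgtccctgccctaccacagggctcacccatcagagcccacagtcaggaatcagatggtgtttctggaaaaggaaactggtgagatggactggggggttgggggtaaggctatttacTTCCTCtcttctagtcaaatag
Fcgr2b, chr1:170976072-170976321, minus strand: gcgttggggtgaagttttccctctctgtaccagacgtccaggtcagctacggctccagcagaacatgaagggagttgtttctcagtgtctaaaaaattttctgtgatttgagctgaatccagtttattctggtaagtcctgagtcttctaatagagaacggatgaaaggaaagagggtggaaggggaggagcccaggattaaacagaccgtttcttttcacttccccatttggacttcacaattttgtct
Fcer1g, chr1:171234350-171234599, minus strand: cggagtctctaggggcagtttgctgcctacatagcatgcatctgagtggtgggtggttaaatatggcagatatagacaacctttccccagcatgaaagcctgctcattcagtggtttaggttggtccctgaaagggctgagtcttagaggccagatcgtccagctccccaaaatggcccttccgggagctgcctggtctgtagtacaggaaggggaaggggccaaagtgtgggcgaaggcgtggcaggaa

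Of the 6 genes, 5 had an entry in the promoter table; Tyrobp is named only. GAGGAA, searched on both strands, occurred once before the start of each of the 3 activating receptors: 55 bases before the start of Fcgr1, 15 before that of Fcgr3 and 22 before that of Fcgr4, each time on the reverse strand as TTCCTC. No match lay in the printed window of Fcgr2b or Fcer1g. Over all 32851 promoter entries of 300 bases, 28.3% held GAGGAA. The matches of Fcgr1 and Fcgr3 sat in a shared run of 14 identical bases. A second Fcgr3 entry starts 9 bases away and holds the same GAGGAA match, 6 bases before its start. These matches describe letters in a window and are no evidence of binding.

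On GRCm38 (GENCODE M21), 4 of the 6 genes lie within 1 stretch of chromosome 1: Fcgr2b (ENSMUSG00000026656) at 170958617-170976547 on the minus strand, Fcgr4 (ENSMUSG00000059089) at 171018920-171029761 on the plus strand, Fcgr3 (ENSMUSG00000059498) at 171051174-171064935 on the minus strand and Fcer1g (ENSMUSG00000058715) at 171229572-171234365 on the minus strand. Fcgr1 (ENSMUSG00000015947) lies on chromosome 3 at 96282909-96293969 (minus strand) and Tyrobp (ENSMUSG00000030579) on chromosome 7 at 30413760-30417585 (plus strand). The windows printed above for Fcgr3 and Fcgr2b lie inside these GENCODE spans, because the RefSeq starts used there differ from the GENCODE ones. Fcgr2b and Fcgr3 encode closely related ligand-binding parts, so shared reads were checked: their longest transcripts had 136 stretches of 60 bases in common, which is 4.04% of the stretches of Fcgr2b and 10.6% of those of Fcgr3. None of these lay in the last 500 bases, where the kit reads, and no other pair of receptors shared any. An antisense gene, Gm38204, overlaps Fcgr2b and had at most 1 UMI in a library.

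After barcodes under 1000 UMIs or over 10% mitochondrial UMIs had been left out, the libraries held 7758, 8230, 13744 and 8133 barcodes, with median depths of 4167, 3404, 2103 and 6761 UMIs. Macrophages were barcodes with 5 or more UMIs of C1qa, C1qb and C1qc. They were called foamy with 2 or more UMIs of Gpnmb, Trem2 and Mmp12, genes known from lipid-laden macrophages, and other macrophages below that. None of the 6 genes is in these rules, although Trem2 signals through Tyrobp. The foamy class held 13, 35, 503 and 66 barcodes and the other class 79, 173, 436 and 69. All 9 macrophage markers (Cd68, Csf1r, Adgre1 and others) were present in both classes of every library. Of the neutrophil markers Ly6g was at 0 in both classes, and the 7 together reached at most 69.6 CPM in foamy and 200 CPM in other macrophages.

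The limits of these classes touch the results below. At the edge of the C1q rule, 5, 10, 155 and 1 barcodes had a sum of 4 and 1, 4, 113 and 0 a sum of 5; at the edge of the foamy rule, 15, 30, 181 and 20 macrophages had a sum of 1 and 7, 16, 95 and 13 a sum of 2. Smooth muscle transcripts made up a median of 0.358%, 0.34%, 1.06% and 0.194% of the UMIs of other macrophages, and 0.194%, 0.194%, 0.143% and 0.112% of those of foamy ones, so the other macrophages of the WT/ApoE-/- library stood apart. Xist was at 950 CPM in both normal diet libraries and at most 0.636 CPM in both western diet ones, where Y-linked genes were at 185 and 193 CPM. Diet, ApoE genotype, sex of the cells and software version therefore cannot be told apart. Between libraries, 38 to 129 barcode sequences were shared, at most 0.824% of the smaller library.

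Epn1 and Epn2, read as the targeted genes from the epsins of the series title, gave a limited check of the labels, as did Apoe and Lyz2. Over all macrophages Epn1, an endocytic adaptor of the epsin family, was at 81.7 CPM in WT, 54.5 in LysM-DKO, 52.4 in WT/ApoE-/- and 42.7 in LysM-DKO/ApoE-/-, and Epn2 was at 35.6, 33.6, 33.2 and 15.7 CPM. Transcript ends outside a deleted part would still be counted, so these values check little. Apoe was at 7012 and 5435 CPM on normal diet and at 8.44 and 8.55 CPM in the libraries labelled ApoE-/-. Lyz2 was at 3696 and 4126 CPM in the WT and WT/ApoE-/- libraries and at 977 and 798 CPM in the LysM-DKO and LysM-DKO/ApoE-/- ones.

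The adaptors were the most abundant of the 6 transcripts in macrophages, and Fcer1g was above Tyrobp in both classes of all 4 libraries. In foamy macrophages Fcer1g was at 1560 CPM in WT (1338 to 1810), 2056 in LysM-DKO (1889 to 2233), 2181 in WT/ApoE-/- (2124 to 2239) and 2679 in LysM-DKO/ApoE-/- (2532 to 2832). In other macrophages it was at 977, 1570, 1061 and 1535 CPM, below the foamy class of the same library each time. Tyrobp was at 945, 1268, 1204 and 1431 CPM in foamy macrophages. In other ones it was at 441, 593, 472 and 583 CPM, again below the foamy class of the same library. Per UMI of Tyrobp there were 1.65, 1.62, 1.81 and 1.87 UMIs of Fcer1g in foamy macrophages and 2.22, 2.65, 2.25 and 2.63 in other ones. The excess of Fcer1g over Tyrobp was thus smaller in the foamy class of each library.

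Fcer1g was seen in 93.8% to 100% of foamy barcodes. In barcodes with 10 or more UMIs of Acta2, Myh11 and Tagln, smooth muscle genes whose cells should lack it, the share was 1.6%, 2.38%, 6.23% and 0.35%. The background was therefore highest in the WT/ApoE-/- library, at 24.6 CPM.

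The inhibitory receptor Fcgr2b was in foamy macrophages at 143 CPM in WT (81.5 to 232), 176 in LysM-DKO (130 to 233), 162 in WT/ApoE-/- (147 to 178) and 181 in LysM-DKO/ApoE-/- (145 to 224). All 4 intervals overlap. With foamy set at 4 or more UMIs, which left 3 barcodes in WT, the WT value was 28.7 CPM from 1 UMI. In other macrophages Fcgr2b was at 222, 228, 143 and 247 CPM, with the WT/ApoE-/- library (123 to 164) below the rest. Among barcodes with under 0.5% smooth muscle UMIs it was at 225, 242, 278 and 288 CPM, and the WT/ApoE-/- library was no longer lowest.

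Fcgr3, the low-affinity activating receptor, differed between libraries in foamy macrophages. It was at 134 CPM in WT (74.9 to 221) and 136 in LysM-DKO (95.5 to 187), against 293 in WT/ApoE-/- (272 to 315) and 371 in LysM-DKO/ApoE-/- (318 to 431). Of all genes with at least 20 UMIs, 26.7% in WT and 11.5% in LysM-DKO were 2 fold higher on western diet in foamy macrophages. In other macrophages Fcgr3 was at 200, 197, 133 and 319 CPM, which is a different order, lowest in WT/ApoE-/- and highest in LysM-DKO/ApoE-/-. With under 0.5% smooth muscle UMIs it was at 215, 211, 249 and 364 CPM there, so the WT/ApoE-/- value moved from lowest to second highest.

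Fcgr1, the high-affinity receptor, was the scarcest or the second scarcest receptor in both macrophage classes of every library. Foamy macrophages held 2, 11, 168 and 29 of its UMIs, or 17.8, 40.3, 66 and 62.6 CPM, and other macrophages 8, 30, 47 and 16 UMIs, or 21.9, 36.2, 34.4 and 67.1 CPM. The 2 UMIs of the WT foamy class leave an interval of 2.16 to 64.4 CPM, so its place in the order is not known.

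Fcgr4, an activating receptor of monocytes, macrophages and neutrophils, ranged from 12.6 to 103 CPM over the macrophage classes. In foamy macrophages it was at 17.8 CPM in WT (2 UMIs, 2.16 to 64.4), 51.3 in LysM-DKO (28.1 to 86.1), 40.1 in WT/ApoE-/- (32.7 to 48.6) and 97.1 in LysM-DKO/ApoE-/- (70.8 to 130). In other macrophages it was at 13.7 CPM in WT (4.44 to 31.9), 103 in LysM-DKO (82 to 127), 22 in WT/ApoE-/- (14.8 to 31.4) and 12.6 in LysM-DKO/ApoE-/- (2.59 to 36.8). The other macrophages of the normal diet LysM-DKO library and the foamy ones of the western diet LysM-DKO/ApoE-/- library were the 2 highest values, and their intervals overlap.

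**Figure D1:**
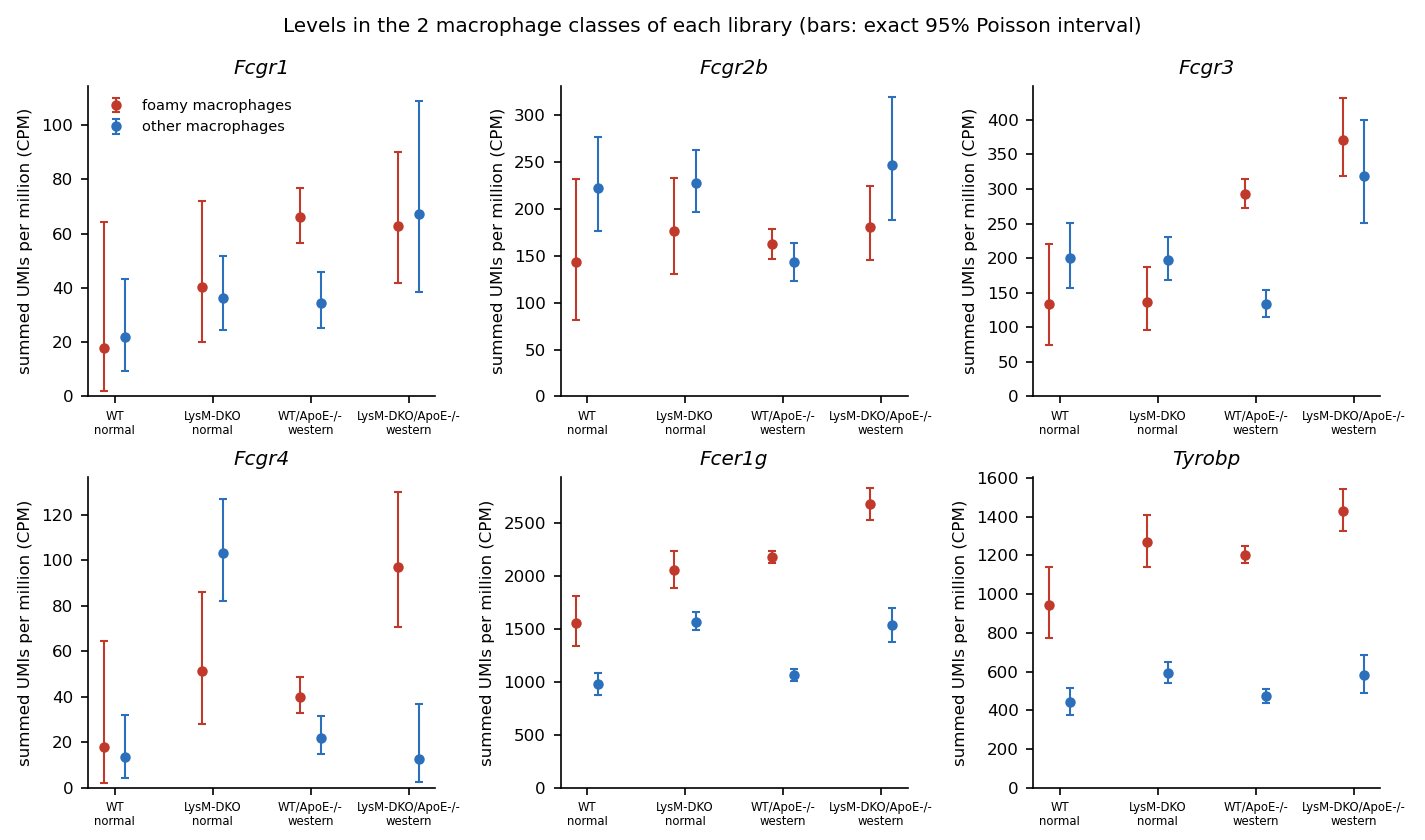
Level of each of the 6 genes in foamy and other macrophages of the 4 libraries, in CPM of summed UMIs on a linear axis from 0 that differs between panels, 1 panel per gene, with bars for exact 95% counting intervals. Fcer1g and Tyrobp are higher in foamy than in other macrophages of each library, while Fcgr4 is high in other macrophages of LysM-DKO (103 CPM) and in foamy macrophages of LysM-DKO/ApoE-/- (97.1 CPM).

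Comparing the 2 macrophage classes within a library leaves out differences between libraries. Tyrobp was higher in foamy macrophages by 2.15 fold in WT, 2.14 in LysM-DKO, 2.55 in WT/ApoE-/- and 2.45 in LysM-DKO/ApoE-/-, that is log2 ratios of 1.10 (0.73 to 1.46), 1.10 (0.89 to 1.30), 1.35 (1.23 to 1.48) and 1.29 (1.03 to 1.57). Fcer1g was also higher in all 4, by smaller log2 ratios of 0.68, 0.39, 1.04 and 0.80, each with an interval above 0. Fcgr2b was near or below 0, at -0.60, -0.36, 0.18 and -0.45, with 4 intervals that span 0. Fcgr1 had ratios of -0.06, 0.19, 0.93 and -0.12.

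Fcgr3 and Fcgr4 differed in direction between libraries. Fcgr3 was lower in foamy macrophages of LysM-DKO, at -0.52 (-1.09 to -0.02), and higher in those of WT/ApoE-/-, at 1.13 (0.90 to 1.38), with -0.54 in WT and 0.22 in LysM-DKO/ApoE-/-. Fcgr4 was lower in foamy macrophages of LysM-DKO, at -0.96 (-1.93 to -0.18), and higher in those of LysM-DKO/ApoE-/-, at 2.74 (1.31 to 5.28; 45 against 3 UMIs), with 0.57 in WT and 0.85 in WT/ApoE-/-. Among macrophage barcodes with under 0.5% smooth muscle UMIs (330 foamy and 162 other in WT/ApoE-/-), the WT/ApoE-/- ratios were smaller: 0.78 for Tyrobp, 0.45 for Fcer1g, 0.50 for Fcgr3, 0.05 for Fcgr1, -0.04 for Fcgr4 and -0.50 for Fcgr2b.

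The counts past 2 fold have to be read against all genes with at least 20 UMIs over both classes. In WT, 1 of the 4 genes with that many UMIs (Tyrobp) was at least 2 fold higher in foamy macrophages, against 10.1% of all genes, and in LysM-DKO 1 of 6 (Tyrobp), against 4.58%. In WT/ApoE-/- it was 3 of 6 (Tyrobp, Fcer1g and Fcgr3), against 5.64%, and in LysM-DKO/ApoE-/- 2 of 6 (Tyrobp and Fcgr4), against 11.2%. The count of 3 in WT/ApoE-/- fell to 0 both with under 0.5% smooth muscle UMIs and with a C1q sum of 10 or more (0.92 for Tyrobp, 0.49 for Fcer1g and 0.58 for Fcgr3). No member was 2 fold lower, against 12.3%, 7.41%, 12.8% and 11% of all genes, but in LysM-DKO Fcgr4 was past 2 fold lower under the same limits, at -1.04 and -1.09. Other settings did this for other members. With foamy at 4 or more UMIs against 0, Fcgr3 was at -2.09 in LysM-DKO (5 against 128 UMIs). Fcgr2b was then at -2.27 in WT (1 against 60 UMIs). With barcodes thinned after the classes were set, Fcgr2b was at -1.08 in LysM-DKO/ApoE-/-. The median log2 ratio of the 6 genes was 0.25, -0.09, 0.98 and 0.51, beside 0.01, -0.03, -0.10 and 0.00 over all genes.

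**Figure D2:**
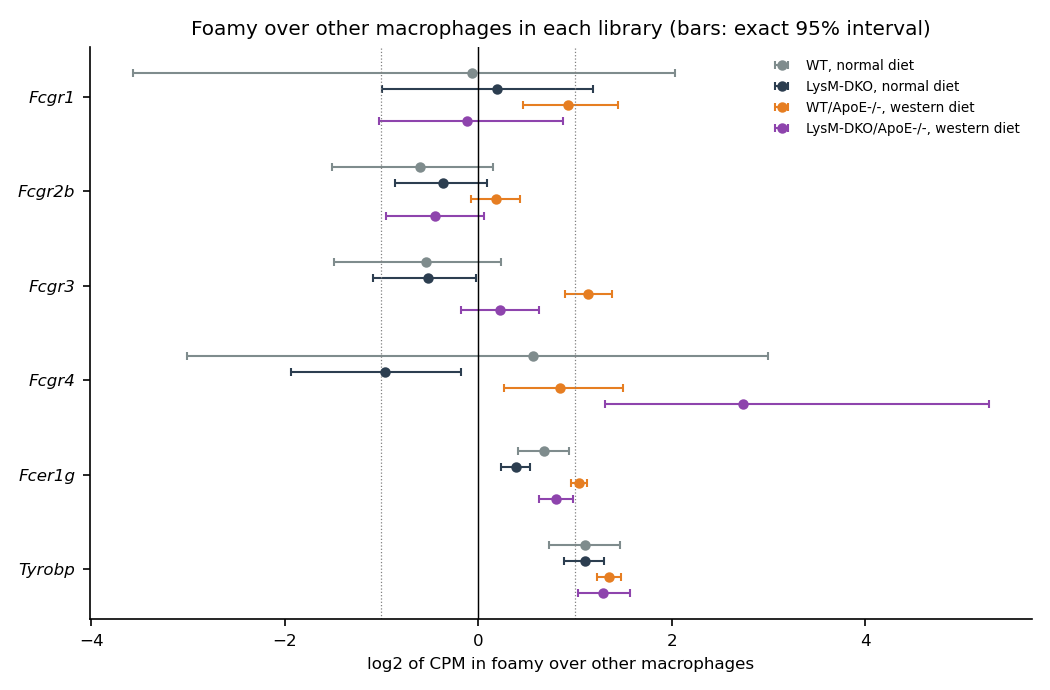
Log2 ratio of foamy over other macrophages for each of the 6 genes in the 4 libraries, with bars for exact 95% counting intervals, a solid line at 0 and dotted lines at a 2 fold difference. Tyrobp lies between 1.10 and 1.35 in all 4 libraries, whereas Fcgr3 and Fcgr4 lie on both sides of 0.

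Other genes of the pathway were taken from 4 lists written with earlier results of these libraries known. Ratios of these genes, here and in later comparisons, were not recomputed under the smooth muscle and C1q limits. Under those limits no member stayed 2 fold higher in foamy macrophages of WT/ApoE-/-. Median smooth muscle shares there were 1.06% in other and 0.143% in foamy macrophages. Of the signalling genes downstream of the receptors (32 listed), foamy over other macrophages were 2 fold higher for 4 of 15 with enough UMIs in WT, 0 of 27 in LysM-DKO, 7 of 32 in WT/ApoE-/- and 5 of 26 in LysM-DKO/ApoE-/-, and lower for 1 gene, in WT. The shares of all genes that were higher, for this and the next lists, are the 10.1%, 4.58%, 5.64% and 11.2% given above, and 12.3%, 7.41%, 12.8% and 11% were lower. The median log2 ratios of the signalling list were 0.40, 0.34, 0.65 and 0.11, beside 0.01, -0.03, -0.10 and 0.00 over all genes. Syk, the kinase that binds phosphorylated Fcer1g, was higher in WT, by 1.51, and so was Pik3r5, a regulatory subunit of phosphoinositide 3-kinase gamma, by 2.05. Lat2, a membrane adaptor of immunoreceptor signalling, was higher in WT/ApoE-/- by 1.78 and in LysM-DKO/ApoE-/- by 2.01.

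A further list held receptors and other proteins taken as partners of Fcer1g or Tyrobp. Of its 21 symbols 1 was not matched, and Trem2 is left out of this comparison. In foamy macrophages 1 of 8, 3 of 14, 5 of 13 and 5 of 11 were 2 fold higher, against 10.1%, 4.58%, 5.64% and 11.2% of all genes, and 0, 1, 0 and 3 lower. Clec4n (dectin-2), which signals through Fcer1g, was higher by 1.36 in LysM-DKO, and Cd300c2 by 1.47 in LysM-DKO and 1.77 in LysM-DKO/ApoE-/-. Pira2, an activating receptor that also uses Fcer1g, was higher by 3.06 in WT/ApoE-/-. Csf1r, the receptor for macrophage colony-stimulating factor, was lower in foamy macrophages of LysM-DKO/ApoE-/-, by -1.35, as were Itgam (CD11b), by -1.47, and Cd33, by -1.98.

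Of the inhibitory receptors (16 listed), 2 of 10, 2 of 12, 7 of 15 and 6 of 13 were 2 fold higher in foamy macrophages, against the same shares of all genes, and 2, 1, 0 and 1 lower. Cd72, an inhibitory receptor best known from B cells, was higher in all 4 libraries, with log2 ratios of 3.62, 1.15, 1.49 and 1.97. Sirpa, the inhibitory receptor for CD47, was higher by 1.53 and 1.05 in the western diet libraries, and Cd22 by 2.80 in WT/ApoE-/-. Pecam1 was lower by -1.57 in LysM-DKO. Of 11 other Fc receptors only 2 had enough UMIs: Fcgrt, the neonatal Fc receptor that recycles IgG, was lower in foamy macrophages of WT/ApoE-/- (-1.05) and LysM-DKO/ApoE-/- (-2.76), and Fcrls, an Fc receptor-like gene, was lower in LysM-DKO/ApoE-/- (-2.77).

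The balance between inhibitory and activating receptors does not depend on the scaling to total UMIs. In foamy macrophages Fcgr2b made up 45.7% of receptor UMIs in WT (28.8 to 63.4, of 35 UMIs), 43.6% in LysM-DKO (34.2 to 53.4, of 110), 28.9% in WT/ApoE-/- (26.5 to 31.3, of 1428) and 25.5% in LysM-DKO/ApoE-/- (20.8 to 30.5, of 330). In other macrophages its share was 48.5%, 40.5%, 43% and 38.3%. The foamy classes of both western diet libraries were thus below the rest of the macrophage classes, with intervals apart from those of the other macrophages of the same library (38.3 to 47.6 and 30.6 to 46.5). Put as a ratio, there were 1.19, 1.29, 2.47 and 2.93 activating receptor UMIs per Fcgr2b UMI in foamy macrophages and 1.06, 1.47, 1.33 and 1.61 in other ones. With only barcodes under 0.5% smooth muscle UMIs, the Fcgr2b share was 29.2% in foamy against 42.7% in other macrophages of WT/ApoE-/- and 25.9% against 39% in LysM-DKO/ApoE-/-.

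Relative to the adaptors, there were fewer receptor UMIs in foamy than in other macrophages of each library. Per 100 UMIs of Fcer1g and Tyrobp there were 12.5, 12.1, 16.6 and 17.3 receptor UMIs in the foamy class, and 32.2, 26.1, 21.7 and 30.5 in the other class. With barcodes thinned to 1000 UMIs before the classes were set, the order turned in LysM-DKO, at 27.3 (3 receptor UMIs) against 24.4, and both classes were at 33.3 in WT (1 receptor UMI in the foamy class). With barcodes thinned after the classes were set, the difference was all but gone in WT/ApoE-/-. Its foamy class was at 17.3 (276 receptor UMIs) and its other class at 17.5 (133 receptor UMIs).

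**Figure D3:**
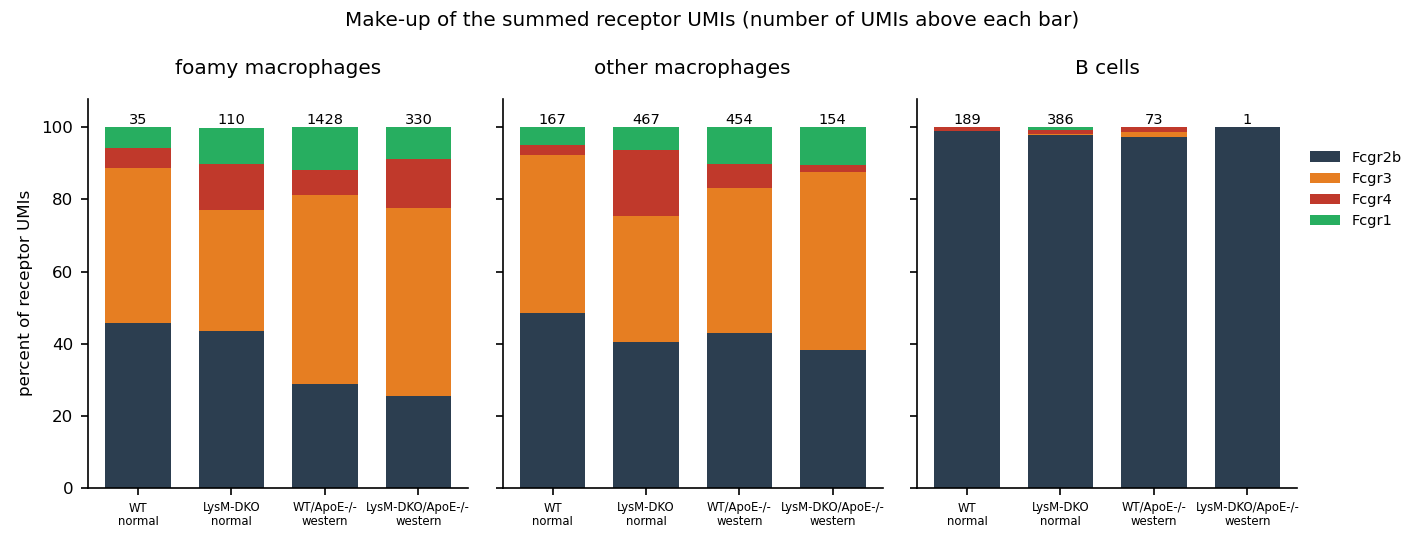
Share of Fcgr1, Fcgr2b, Fcgr3 and Fcgr4 in the summed receptor UMIs (percent, stacked to 100, with the number of UMIs above each bar) of foamy macrophages, other macrophages and B cells in the 4 libraries. Of the macrophage bars, the Fcgr2b part is smallest in foamy macrophages of WT/ApoE-/- (28.9%) and LysM-DKO/ApoE-/- (25.5%).

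Single barcodes often held both kinds of receptor. A UMI of Fcgr2b and of at least 1 activating receptor was found together in 46.2%, 48.6%, 31.4% and 51.5% of foamy barcodes, and in 39.2%, 41.6%, 12.6% and 36.2% of other macrophages. Activating receptors without Fcgr2b were found in 15.4%, 25.7%, 29.4% and 36.4% of foamy barcodes, and Fcgr2b alone in 15.4%, 8.57%, 5.96% and 7.58%. No receptor UMI was found in 23.1%, 17.1%, 33.2% and 4.55% of foamy barcodes and in 25.3%, 21.4%, 57.1% and 17.4% of other ones. These shares move with depth: median UMIs per barcode were 8462, 6743, 4103 and 5729 in foamy and 4400, 4448, 1926 and 3077 in other macrophages, and no order between libraries is read from them.

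The question behind the genotypes is what the LysM-DKO does in aortic macrophages, and each diet gave 1 pair of libraries for it. Fcgr4 had the largest ratio of LysM-DKO over WT among the 6 genes: in other macrophages on normal diet it was at 85 against 5 UMIs, a log2 ratio of 2.78 (1.63 to 4.57). In foamy macrophages on western diet it was at 45 against 102 UMIs, a ratio of 1.29 (0.74 to 1.80). The foamy ratio on normal diet was 1.25 with an interval that spans 0 (-0.60 to 4.70), and the ratio in other macrophages on western diet was -0.61 (-3.16 to 0.88; 3 against 30 UMIs). With both macrophage classes summed, the Fcgr4 ratio was 2.52 for the normal diet pair and 1.03 for the western diet one.

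The adaptors were higher in the LysM-DKO library of each pair by less than 2 fold. Fcer1g had log2 ratios of 0.40 (0.15 to 0.65) and 0.68 (0.51 to 0.86) in foamy and other macrophages on normal diet, and of 0.30 (0.21 to 0.39) and 0.53 (0.36 to 0.70) on western diet. Tyrobp had ratios of 0.42 and 0.43 in the normal diet pair and 0.25 and 0.31 in the western diet pair. Fcgr2b and Fcgr3 had ratios between -0.03 and 0.34 in 3 of the 4 pairs; in other macrophages on western diet they were at 0.80 and 1.26 (0.85 to 1.65), and Fcgr1 there was at 0.99. In that pair the median smooth muscle share was 0.194% in LysM-DKO/ApoE-/- against 1.06% in WT/ApoE-/-. With barcodes under 0.5% smooth muscle UMIs its ratios were 0.55 for Fcgr3, 0.06 for Fcgr2b, -0.05 for Fcgr1, -0.09 for Fcer1g, -0.33 for Tyrobp and -1.48 for Fcgr4 (3 against 27 UMIs). In western diet foamy macrophages the same limit gave 0.97 for Fcgr4, 0.06 for Fcgr3, -0.10 for Fcgr2b, -0.25 for Fcgr1, 0.11 for Fcer1g and 0.12 for Tyrobp.

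Against the background, 1 of 6 genes was 2 fold higher in LysM-DKO in each of 3 pairs: Fcgr4 in other macrophages on normal diet, where 6.81% of all genes were, Fcgr4 in foamy macrophages on western diet, where 3.91% were, and Fcgr3 in other macrophages on western diet, where 8.78% were. None of the 4 genes with enough UMIs was in foamy macrophages on normal diet, where 11.8% of all genes were. No member was 2 fold lower in LysM-DKO, against 8.48% and 2.87% of all genes in foamy and other macrophages of the normal diet pair and 7.73% and 15.8% in the western diet pair. With under 0.5% smooth muscle UMIs, or with a C1q sum of 10 or more, the western diet other macrophages had no member 2 fold higher and 1 lower, Fcgr4. Under the smooth muscle limit Fcgr4 in western diet foamy macrophages was also just short of 2 fold, and on normal diet Fcgr1 (1.12) joined Fcgr4 in other macrophages. The median ratio of the 6 genes was 0.41 and 0.54 in the first and 0.27 and 0.67 in the second pair, in foamy and other macrophages, beside 0.02, 0.04, -0.02 and -0.06 over all genes.

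**Figure D4:**
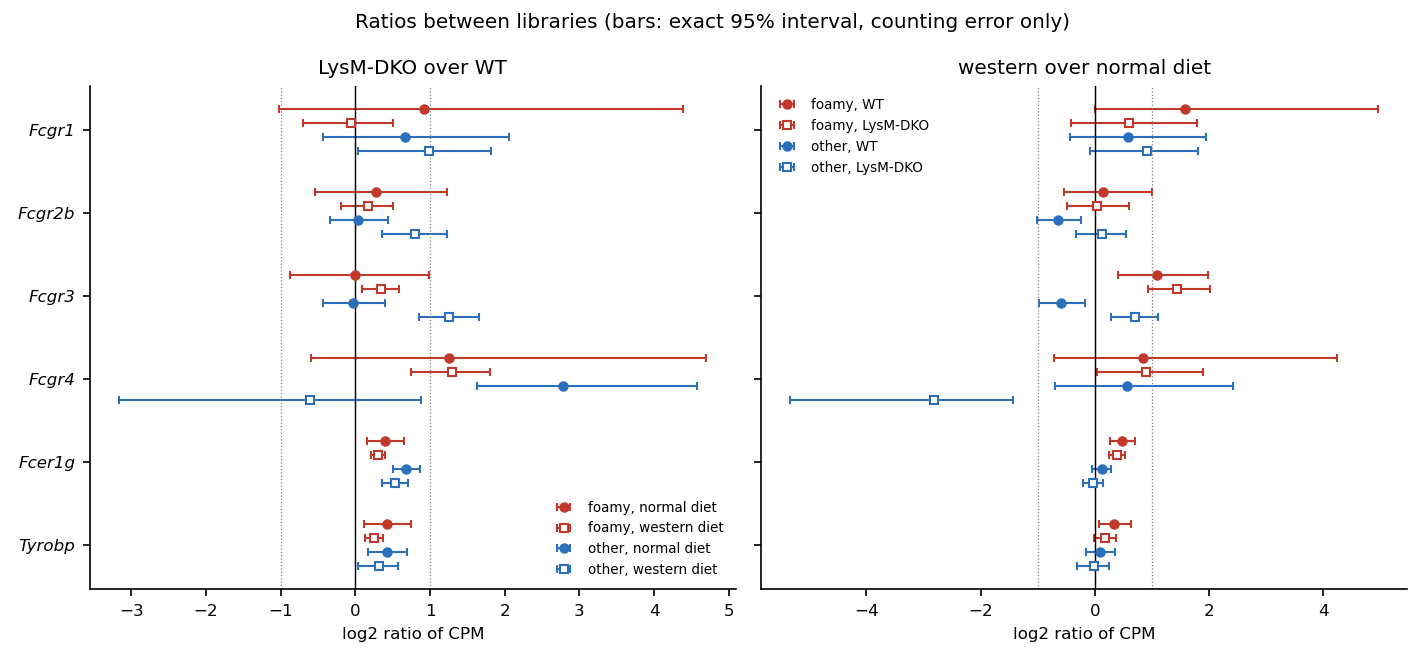
Log2 ratios between libraries for each of the 6 genes in foamy and other macrophages, LysM-DKO over WT within a diet and western over normal diet within a genotype, with bars for exact 95% counting intervals, solid lines at 0 and dotted lines at a 2 fold difference. Fcgr4 has the highest LysM-DKO over WT ratio, 2.78 in other macrophages on normal diet, and Fcgr3 is above 0 in foamy macrophages of both western over normal pairs, at 1.09 and 1.44.

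In the same pairs the signalling list had 1 higher and 3 lower genes of 16 in foamy macrophages on normal diet, 2 and 1 of 28 in other macrophages, 2 and 3 of 32 in foamy macrophages on western diet and 7 and 0 of 28 in other ones. In that order of pairs 11.8%, 6.81%, 3.91% and 8.78% of all genes were higher and 8.48%, 2.87%, 7.73% and 15.8% lower. Src, a kinase that phosphorylates the activation motif, was higher in foamy macrophages of LysM-DKO/ApoE-/- by 1.55, and Was, the Wiskott-Aldrich protein that drives actin assembly in phagocytosis, by 1.22, while Fgr, another Src family kinase, was lower by -1.20. Rac2, a small GTPase of phagocytes, was higher by 1.74 and Lcp2 (SLP-76) lower by -1.18 in foamy macrophages of LysM-DKO on normal diet. Clec4n was higher in LysM-DKO in both classes on normal diet, by 2.02 and 1.01. Among the listed partners of the adaptors, 1 of 9, 3 of 13, 3 of 13 and 3 of 11 were higher and 0, 0, 1 and 0 lower, in the order of pairs just given and against the same shares of all genes, and Itgam was the lower one, by -1.12.

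Of the inhibitory receptors, 3 of 8, 2 of 12, 4 of 15 and 5 of 12 were higher in LysM-DKO, against 11.8%, 6.81%, 3.91% and 8.78% of all genes, and none lower, against 8.48%, 2.87%, 7.73% and 15.8%. Cd300lf, an inhibitory receptor for phospholipids, was higher in foamy macrophages of LysM-DKO/ApoE-/- by 2.59, and Cd72 in other macrophages of LysM-DKO by 1.91. In other macrophages on western diet Csf1r was higher by 1.42, Cd33 by 2.16, and Fcgrt and Fcrls by 1.90 each, in the pair with median smooth muscle shares of 0.194% and 1.06%.

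Western over normal diet compares ApoE-/- with ApoE-bearing libraries as well. Here Fcgr3 was higher in foamy macrophages, with log2 ratios of 1.09 (0.40 to 1.98) between the WT libraries and 1.44 (0.93 to 2.01) between the LysM-DKO ones. Fcgr2b was near 0 in the same barcodes, at 0.14 and 0.04. Fcgr1 had ratios of 1.57 (0.01 to 4.95; 168 against 2 UMIs) and 0.60, Fcgr4 of 0.85 and 0.89, Fcer1g of 0.48 and 0.38, and Tyrobp of 0.34 and 0.17. The median of all genes was itself 0.21 in WT and 0.10 in LysM-DKO, and 0.28 and 0.09 in other macrophages; with the median set to 0, foamy Fcgr3 was at 0.87 and 1.33 and Fcgr2b at -0.07 in both.

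In other macrophages Fcgr3 was lower on western diet in WT, at -0.59 (-0.98 to -0.17), as was Fcgr2b, at -0.64 (-1.02 to -0.24), while Fcgr3 was higher in LysM-DKO, at 0.70 (0.28 to 1.10). With under 0.5% smooth muscle UMIs the WT values were 0.20 and 0.29, and Fcgr1 (2.04) and Fcgr4 (1.70) were past 2 fold higher. Fcgr4 was lower on western diet in LysM-DKO, with 3 against 85 UMIs and a ratio of -2.81 (-5.33 to -1.43). The 13 foamy barcodes of the WT library limit every WT value of the foamy class.

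Among all genes, 26.7% were 2 fold higher and 12.6% lower on western diet in foamy macrophages of WT, where 2 of 6 members (Fcgr1 and Fcgr3) were higher. In LysM-DKO it was 11.5% and 7.73%, with 1 of 6 members (Fcgr3) higher. In other macrophages 21.9% were higher and 8.12% lower in WT, with no member past 2 fold, and 7.61% and 7.37% in LysM-DKO, with 1 of 6 members (Fcgr4) lower. Around them, Cd72 was higher on western diet in foamy macrophages, by 1.50 in the WT pair and by 1.84 in the LysM-DKO pair, and Fcgrt and Fcrls were lower, by -1.57 and -1.50 in the first pair and by -2.23 and -1.74 in the second. Lcp2 was lower in both macrophage classes of WT, at -2.63 and -2.20. The signalling list as a whole had 6 higher and 6 lower genes of 32 in foamy and 1 and 4 of 29 in other macrophages of WT. In LysM-DKO it had 4 and 0 of 26 in foamy and 4 and 0 of 25 in other macrophages. The inhibitory receptors had 4 and 1 of 14 and 1 and 4 of 12 in WT, and 4 and 0 of 13 and 3 and 1 of 11 in LysM-DKO. These are read against the shares of all genes just given.

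Outside macrophages the receptor UMIs of B cells were almost all Fcgr2b, while neutrophils and barcodes of the dendritic rule below held mainly the adaptors. B cells (2 or more UMIs of Cd79a and Ms4a1; 773, 1121, 503 and 14 barcodes) had Fcgr2b at 62.4, 69.4, 55.6 and 19.9 CPM, the last from 1 UMI, and it made up 98.9%, 97.9% and 97.3% of receptor UMIs in the first 3 libraries. Fcer1g was at 13, 19.3, 8.61 and 0 CPM there and Tyrobp at 18, 15.6, 13.3 and 0 CPM. B cells carried 47.5% and 46.2% of all Fcgr2b UMIs of the normal diet libraries, but 7.65% and 0.488% of those of the western diet ones, in which foamy macrophages carried 44.4% and 41%. T cells were low for all 6 genes, with Fcer1g at 12.4, 11.3, 8.03 and 0 CPM.

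Neutrophils (10 or more UMIs of S100a8 and S100a9) numbered 6, 17, 20 and 2 barcodes. Fcer1g was at 1134, 1943 and 2008 CPM and Tyrobp at 1305, 1927 and 1307 CPM in the first 3 libraries. In LysM-DKO the Tyrobp level (1604 to 2297) was above that of foamy macrophages (1138 to 1409). Their receptor UMIs were mostly Fcgr3, at 2, 13, 4 and 3 UMIs, with Fcgr2b at 0, 0, 1 and 0, Fcgr4 at 1, 1, 0 and 0 and Fcgr1 at 0. The dendritic rule (2 or more UMIs of Flt3, Xcr1, Clec9a, Cd209a and Zbtb46) took 57, 64, 56 and 19 barcodes. They had Fcer1g at 261, 284, 483 and 190 CPM, Tyrobp at 382, 338, 323 and 129 CPM and Fcgr2b at 6.86, 15.6, 72.6 and 28.7 CPM. In WT only 45.6% of them held a UMI of Fcer1g and 43.9% one of Tyrobp, at a median depth of 7098 UMIs. The class may thus be mixed, and its values are those of the rule rather than of dendritic cells alone.

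A small group with 2 or more UMIs of Treml4, a gene known from Ly6c-low monocytes, was formed after the Fcgr4 barcodes had been seen and held 10, 23, 5 and 5 barcodes outside the macrophage classes. Fcgr4 gave 2 of 3, 26 of 29, 0 of 0 and 12 of 13 of its receptor UMIs, or 25, 180, 0 and 564 CPM.

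**Figure D5:**
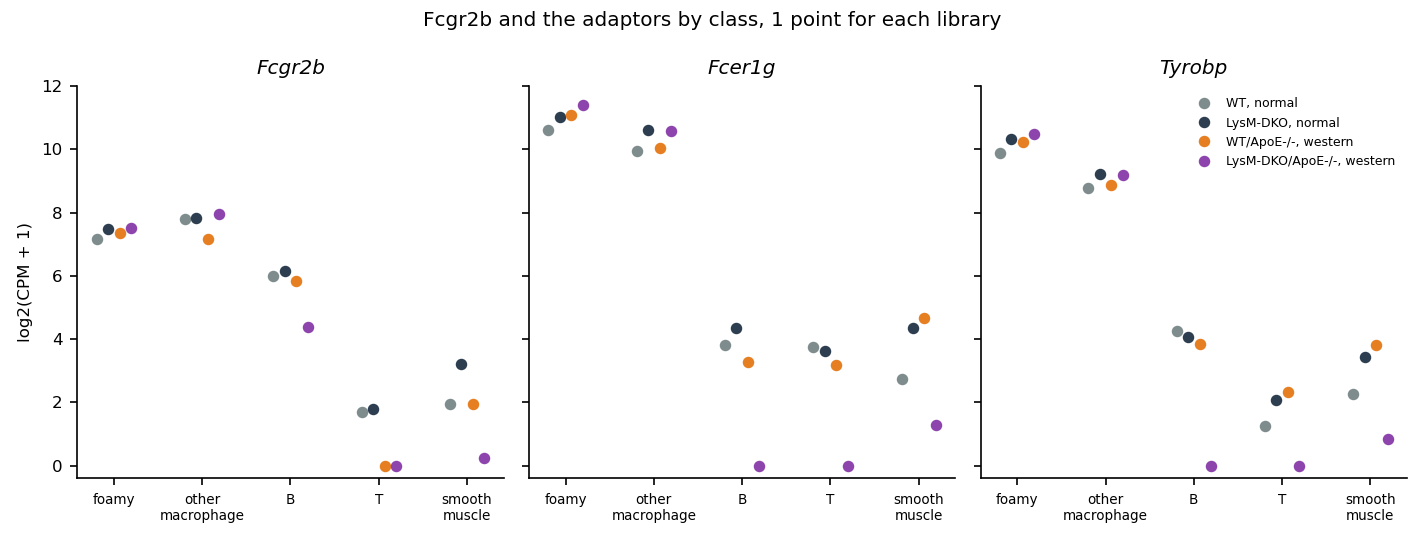
Level of Fcgr2b, Fcer1g and Tyrobp, as log2 of CPM plus 1, in foamy and other macrophages, B cells, T cells and barcodes with smooth muscle genes, with 1 point per library and no error bars. Fcgr2b is high in macrophages and B cells (62.4, 69.4 and 55.6 CPM in the first 3 libraries), whereas both adaptors are high in macrophages and low in the rest.

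The Fcgr4 UMIs of the normal diet LysM-DKO library were spread over 33 of 173 other macrophages. The highest barcode held 16 UMIs, the next 7, and the top 5 together 40 of 85; without the highest the level was 84.5 CPM. Barcodes with and without Fcgr4 had median depths of 4881 and 4164 UMIs. In those with Fcgr4, Fcer1g was at 2602 against 1311 CPM in those without, Tyrobp at 1144 against 455, and Ms4a7 at 518 against 242, whereas Mrc1, the mannose receptor of resident macrophages, was at 699 against 1209 and Fcgr2b at 169 against 243. In foamy macrophages of LysM-DKO/ApoE-/-, 24 of 66 barcodes held Fcgr4; Mrc1 was at 21.9 CPM in them against 278 in the rest, and Fcer1g at 2886 against 2543. Not all other classes shared this direction for Mrc1: with against without Fcgr4 it was at 167 against 120 CPM in foamy and 602 against 473 in other macrophages of WT/ApoE-/-, and at 1372 against 1178 in other macrophages of WT (5 barcodes with Fcgr4), but at 444 against 886 in foamy macrophages of LysM-DKO. Fcgr2b in other macrophages of WT/ApoE-/- was at 433 against 121 CPM. Median depths with and without Fcgr4 were 7491 and 3652 UMIs in foamy and 4312.5 and 1874.5 in other macrophages of WT/ApoE-/-. They were 7356.5 and 5282.5 in foamy macrophages of LysM-DKO/ApoE-/-, 7909 and 6463 in those of LysM-DKO, and 4720 and 4377.5 in other macrophages of WT. The part of depth in these contrasts was not tested. These splits were made on Fcgr4 itself after its values were seen and are descriptions. Thinned to 1000 UMIs per barcode, the share of foamy barcodes with Fcgr4 was 7.69%, 0%, 4.17% and 10.6%, against 15.4%, 20%, 13.3% and 36.4% at full depth.

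Across 38 sums of a class in a library with 20 or more barcodes, the genes most like each member were found by Pearson correlation of log2(CPM + 1) among 6336 genes; the sums share libraries and depth, so r is given as a description. Fcer1g and Tyrobp were most like each other of all member pairs, at 0.980. The nearest other genes were Lilrb4a (0.970), Lilr4b (0.963) and Nlrp3 (0.957) for Fcer1g and Mpeg1 (0.976), Wfdc17 (0.962) and Lilrb4a (0.962) for Tyrobp. For Fcgr3 they were Igsf6 (0.967), Sdcbp (0.949) and Cd33 (0.931), for Fcgr1 Ms4a7 (0.911), Mrc1 (0.909) and C3ar1 (0.905), and for Fcgr4 Fcrls (0.881), Adgre1 (0.854) and Cd68 (0.832). Fcgr2b had Syk (0.908), Spi1 (0.906) and Lyn (0.890), and it was least like Fcgr1 among the receptors, at 0.650.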

How the data were processed

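The deposited matrices hold whole-number UMI counts per gene and barcode, made by the authors with Cell Ranger, per the file headers version 6.0.1 where the diet was normal and 6.1.2 where it was western. The submitters' processing notes name Cell Ranger 6.1.2, Seurat 4.1.0 and mm10. The annotation release and the cell calling settings are not given in the sources used here.

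Barcodes under 1000 UMIs or over 10% mitochondrial UMIs were dropped. Classes were set by the first rule met, in the order macrophage, neutrophil (with a C1q sum of at most 4), B cell (Cd79a and Ms4a1, 2 or more UMIs) and T cell (Cd3d, Cd3e and Trac, 2 or more UMIs), then the remaining classes. UMIs were summed per library and class with Python 3.11.15, numpy 2.4.6, scipy 1.17.1 and pandas 2.3.3 and divided by the total of the class. Levels have exact Poisson intervals, shares exact binomial (Clopper-Pearson) intervals, and log2 ratios, with 0.5 UMIs added to each side, exact conditional binomial intervals. No test was run, since each group is 1 library and cells are not replicates. A gene was counted as 2 fold higher or lower only with at least 20 UMIs over both sides. The ratio script was checked on simulated counts.

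The scrublet doublet caller in scanpy 1.11.5 marked at most 1 barcode in a library and had thus not worked, so doublets were kept; removing the highest-scoring barcodes up to an expected share was an alternative. Total UMIs were 51281643, 50662515, 67450979 and 62510744. The members and all gene lists were chosen with earlier results of these data known. Named pathway genes had at least 20 UMIs, a ratio past 2 fold and an interval apart from 0, and were among the 5 nearest bounds farthest from 0 in each direction of a comparison. Genes named by likeness were the 3 with the highest r per member.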

Additional observations from a re-analysis of the deposited data

Results flagged for a closer look

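Fcgr3 and Fcgr4 had foamy over other macrophage ratios of opposite direction in different libraries, each with a counting interval apart from 0. The Fcgr3 log2 ratio was 1.13 in WT/ApoE-/- and -0.52 in LysM-DKO on normal diet. The Fcgr4 log2 ratio was 0.85 in WT/ApoE-/- and 2.74 in LysM-DKO/ApoE-/-, against -0.96 in LysM-DKO on normal diet. With under 0.5% smooth muscle UMIs the WT/ApoE-/- ratios were 0.50 for Fcgr3 and -0.04 for Fcgr4, and with a C1q sum of 10 or more 0.58 and 0.10. The Fcgr3 ratio in LysM-DKO was -2.09 with foamy at 4 or more UMIs against 0. With 1 library per group the difference between libraries was not tested. The search for a sample far from its group could not be made, as each group is 1 library.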

How the results depend on the processing

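Log2 ratios of the 6 genes were recomputed under 13 or 14 other settings, levels and shares under 10 and counts of genes under 2. Of 957 ratios, 827 stayed within the interval of the reported value, and 91 lay on the other side of 0. Of those, 71 belong to a reported interval that spans 0. The other 20 came from thinned barcodes (11), the smooth muscle limit (6), a C1q sum of 10 or more (2) and equal weight for each barcode (1). Among them 2 had a reported value past 2 fold, western over normal diet in WT foamy macrophages with barcodes thinned to 1000 UMIs before the classes were set: -3.08 for Fcgr1 (14 against 0 UMIs) and -0.51 for Fcgr3 (86 against 0). The WT side was then 1 barcode, and the sign comes from the 0.5 UMIs added to it. Of 80 Fcgr2b shares 72 stayed within the interval, of 80 ratios of receptors to adaptors 70. Of 480 levels in CPM 389 stayed within it and 91 moved. Of 240 counts of members past 2 fold, 41 moved by more than 1.5 times or to or from 0. Thinning to 1000 UMIs before the classes were set left 1, 5, 246 and 28 foamy barcodes. The cause of the other moves was not tested.

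The Tyrobp ratio of foamy over other macrophages stayed above 0 under all settings run, from 0.46 to 2.04, but passed under 2 fold in several. With foamy at 4 or more UMIs against 0 it was 1.51 in WT, 1.50 in LysM-DKO and 1.66 in WT/ApoE-/-. Thinning before the class rules gave 0.71 in LysM-DKO, 0.72 in WT/ApoE-/- and 0.95 in LysM-DKO/ApoE-/-. Thinning after the class rules, with each barcode keeping its class from full depth, gave 0.65, 0.46, 1.01 and 2.04. Equal weight for each barcode gave 0.78 in LysM-DKO and 1.04 in WT/ApoE-/-. In WT/ApoE-/- a C1q sum of 10 or more gave 0.92, and under 0.5% smooth muscle UMIs, a limit added after seeing the data, gave 0.78. In western diet other macrophages the same C1q sum gave LysM-DKO over WT ratios of -0.10 for Fcer1g and -0.22 for Tyrobp.

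The Fcgr4 ratio of LysM-DKO over WT was -3.01 in normal diet foamy macrophages with thinning after the rules (0 against 1 UMI). It was 1.11 in normal diet other macrophages with thinning before the rules. On western diet it was 1.03 with both classes together, where other macrophages alone had -0.61.

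Thinning before the rules gave Fcgr2b shares of 100% in WT (1 of 1 UMI) and LysM-DKO (3 of 3), 24.5% in WT/ApoE-/- (37 of 151) and 20.7% in LysM-DKO/ApoE-/- (6 of 29) foamy macrophages. Thinning after the rules gave 66.7% in WT (4 of 6) and in LysM-DKO (8 of 12), and foamy at 4 or more gave 20% in WT (1 of 5) and 26.1% in WT/ApoE-/- (312 of 1197). Receptor UMIs per 100 adaptor UMIs in foamy macrophages were 33.3, 27.3 and 22 in WT, LysM-DKO and LysM-DKO/ApoE-/- with thinning before the rules (against 33.3, 24.4 and 28.4 in other macrophages), and 5.43 and 7.67 in WT and LysM-DKO at 4 or more. In other macrophages they were 29.1 in LysM-DKO, 17.5 in WT/ApoE-/- and 43.9 in LysM-DKO/ApoE-/- with thinning after the rules. The foamy values beside these were 11.7, 17.3 and 16.1. Other macrophages of WT/ApoE-/- were at 19.1 with thinning before the rules and at 24.2 under 0.5% smooth muscle UMIs.

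The number of genes 2 fold higher in foamy macrophages depended on the limit of 20 UMIs: 334, 275, 566 and 536 genes passed, against 123, 94, 405 and 229 at 50 UMIs and 1114, 965, 853 and 1179 at 5. Depth limits Fcgr1 and Fcgr4 most, as 2 UMIs of each were in WT foamy macrophages. No paired test between groups was possible because each group is 1 library, while foamy and other macrophages were compared within each library.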
